A study of Mus musculus with 10 samples.

Results

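Cytosolic nucleic acid sensors and their adaptors, 9 genes in all, were followed through RNA-seq of B16-F1 mouse melanoma cells. They were taken by symbol from the deposited table, under the older names that the table uses, and all 9 of 9 had an entry among 10735 protein-coding genes. They were the RNA sensors Ddx58 (RIG-I), Ifih1 (MDA5) and Dhx58 (LGP2), the adaptor Mavs, the DNA sensor Mb21d1 (cGAS), its adaptor Tmem173 (STING), the kinase Tbk1, the double-stranded RNA-activated kinase Eif2ak2 (PKR) and the RNA editing enzyme Adar (ADAR1). B16-F1ΔFOXC2 cells, a derivative of B16-F1 with the genotype delta FOXC2, were set against wild-type (WT) B16-F1 cells. Both came from the C57Bl/6 background, at passages 5 to 10 and about 90% confluence, and were lysed after 24 h in RPMI-1640 with 10% FBS, 5 libraries per group. No stimulus with nucleic acid or interferon is named for either group. The labels used here do not say how FOXC2 was removed or whether the ΔFOXC2 cells are 1 clone, so any other difference between the 2 cell populations is part of every comparison. The labels number the replicates and do not state that each came from a separate culture, so p-values measure the spread between these libraries, which may in part be technical.

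Cells detect foreign or misplaced nucleic acid in the cytosol along a pair of main routes. RIG-I and MDA5 bind double-stranded RNA and signal through MAVS on mitochondria, while cGAS binds DNA and makes a cyclic dinucleotide that activates STING on the endoplasmic reticulum; both routes use TBK1 to phosphorylate IRF3 and induce type I interferon. PKR halts translation when it binds double-stranded RNA, and ADAR1 edits adenosines in such RNA so that self RNA is not sensed. Several of these genes, RIG-I, MDA5, LGP2, PKR and the long form of ADAR1 among them, are themselves induced by interferon through a promoter element.

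In ΔFOXC2 cells Ddx58 and Eif2ak2 rose, and the other 7 genes were not called in either direction. Ddx58 was 3.78 times as high in ΔFOXC2 as in WT cells by the ratio of the mean FPKM, and Eif2ak2 1.52 times. Adar was 1.42 times as high and Mavs 0.825 times as high, differences that passed the p threshold and not the fold threshold. A call needed 1.5-fold or more and an adjusted p no higher than 0.05, from limma on log2(FPKM + 0.1) with Benjamini-Hochberg adjustment over 10570 genes. Those were the genes averaging 0.5 FPKM or more across the libraries, and all 9 passed that filter. FPKM is the number of fragments on a gene scaled by transcript length and by the mapped fragments of the library. All log2 differences below are ΔFOXC2 minus WT, which is the reverse of the direction in the design text. By this rule 4.97% of the genes tested were called higher and 3.65% lower in ΔFOXC2 cells, and 2 and 0 of the 9 were called. By the unadjusted p at any fold, limma put 4 of the 9 higher and 1 lower, beside 24.2% and 25.2% of all genes tested. The median log2 difference was 0.12 over the 9 genes and -0.01 over all tested genes.

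The promoters of the genes that rose are shown beside others that were not called, because the interferon-responsive members carry a known sequence element. RefSeq windows of build GRCm38.p6, from 250 bases before to 50 bases after a start site, were matched for 7 of the 9 genes and gave 9 windows, 3 of them for Adar. No window was used for Dhx58 and Tmem173. Each was searched on both strands for the core of the interferon-stimulated response element, GAAANNGAAA, for the core bound by IRF proteins, AANNGAAA, and for a forkhead core, GTAAACA. Every response element core contains an IRF core. Capitals mark matches to the first 2 motifs, and each sequence is written 5′ to 3′ on the strand of the gene. The Ddx58 window is chr4:40239776-40240075 (minus strand), Eif2ak2 chr17:78882523-78882822 (minus strand), Ifih1 chr2:62646206-62646505 (minus strand), Adar chr3:89730468-89730767 (plus strand, the third of its start sites) and Mavs chr2:131233813-131234112 (plus strand).
Ddx58: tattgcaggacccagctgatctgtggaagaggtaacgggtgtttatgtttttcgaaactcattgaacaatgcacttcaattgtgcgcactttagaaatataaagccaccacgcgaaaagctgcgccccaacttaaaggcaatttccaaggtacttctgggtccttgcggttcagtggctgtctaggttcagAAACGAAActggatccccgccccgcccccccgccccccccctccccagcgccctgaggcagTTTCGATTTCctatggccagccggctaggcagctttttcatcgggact
Eif2ak2: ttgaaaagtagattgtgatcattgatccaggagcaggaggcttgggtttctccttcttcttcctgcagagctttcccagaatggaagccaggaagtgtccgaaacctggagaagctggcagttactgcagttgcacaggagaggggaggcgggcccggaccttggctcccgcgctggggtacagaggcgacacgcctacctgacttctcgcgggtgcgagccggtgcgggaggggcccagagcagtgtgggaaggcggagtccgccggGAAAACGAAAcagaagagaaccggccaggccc
Ifih1: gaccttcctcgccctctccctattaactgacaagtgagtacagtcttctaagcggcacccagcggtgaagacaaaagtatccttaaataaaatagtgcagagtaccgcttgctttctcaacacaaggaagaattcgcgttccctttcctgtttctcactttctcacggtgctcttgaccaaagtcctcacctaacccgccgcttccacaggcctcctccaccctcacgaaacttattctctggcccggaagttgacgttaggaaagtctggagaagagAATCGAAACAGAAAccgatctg
Adar: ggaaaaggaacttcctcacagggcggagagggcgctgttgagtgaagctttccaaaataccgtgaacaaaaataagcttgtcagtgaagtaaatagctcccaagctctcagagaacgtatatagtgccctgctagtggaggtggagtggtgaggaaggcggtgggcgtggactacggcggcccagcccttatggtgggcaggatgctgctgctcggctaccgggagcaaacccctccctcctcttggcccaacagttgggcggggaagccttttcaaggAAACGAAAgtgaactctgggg
Mavs: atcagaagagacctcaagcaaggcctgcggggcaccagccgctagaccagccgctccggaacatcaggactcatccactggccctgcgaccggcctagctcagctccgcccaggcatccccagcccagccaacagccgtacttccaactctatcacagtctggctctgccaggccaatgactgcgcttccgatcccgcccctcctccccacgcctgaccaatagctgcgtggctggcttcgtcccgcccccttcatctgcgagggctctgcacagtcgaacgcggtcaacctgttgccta

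The response element core was found in 3 of the 9 windows, those of Ddx58, Eif2ak2 and Ifih1. It lies in 3.43% of the 32817 RefSeq mouse windows of the same length. In Ddx58 the match ran from base 3 to base 12 after the start site, on the opposite strand, with a separate IRF core from -59 to -52. In Eif2ak2 it ran from base 19 to 28, and in Ifih1 from 33 to 42. The third Adar window held an IRF core from base 30 to 37 and no response element core. The windows of Mavs, Mb21d1 and Tbk1 and the other Adar windows held neither motif. An IRF core lies in 23.9% of all windows. The forkhead letters GTAAACA were in 0 of the 9 windows and in 3.65% of all windows. Variants of that core, such as ATAAACA, were not searched, so the 0 covers these exact letters only. The matches given here are of letters and not measured sites of binding, and a window without a match says nothing of sites elsewhere. Ifih1 carried the core and was not called.

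**Figure D1:**
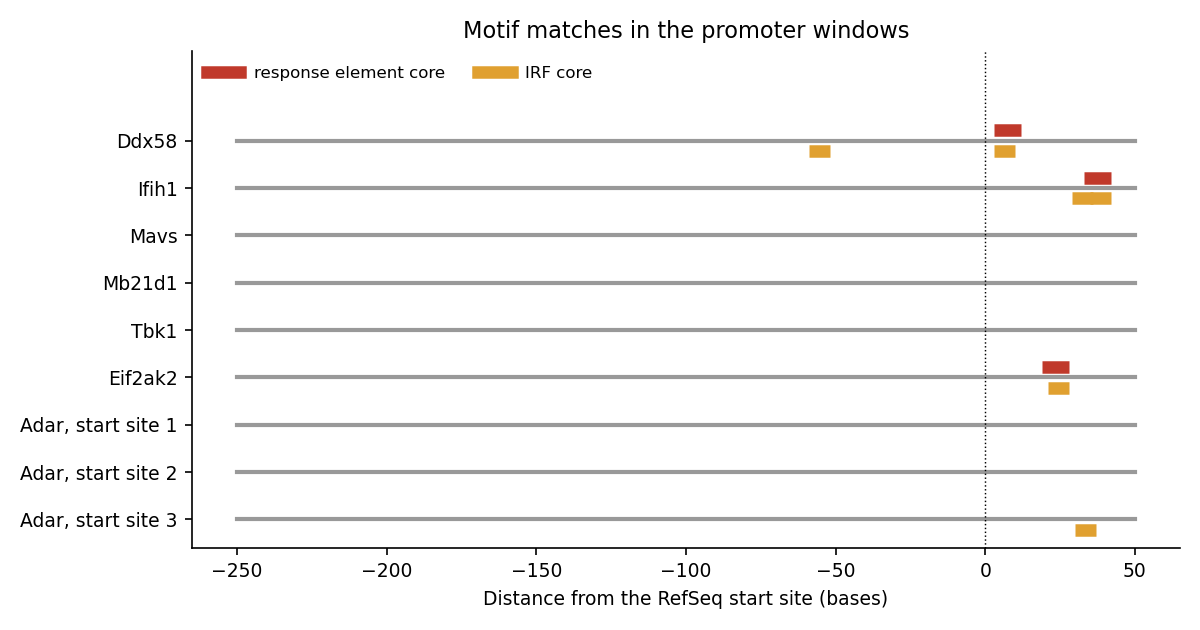
Motif matches in the 9 promoter windows of 7 genes, by distance in bases from the RefSeq start site at 0. Red bars are response element cores, seen in Ddx58, Ifih1 and Eif2ak2, and orange bars are IRF cores, seen in these and in the third Adar window.

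Among the RNA sensors, Ddx58 encodes the helicase that recognises short double-stranded RNA with a 5′ triphosphate end. Its gene (ENSMUSG00000040296.15) lies on chromosome 4, 40203773 to 40239828, on the minus strand in GRCm38. The ΔFOXC2 libraries had 6.73, 7.97, 5.70, 6.95 and 7.27 FPKM, and the WT libraries 1.31, 1.55, 1.94, 1.94 and 2.42 FPKM. All 5 ΔFOXC2 libraries were above the highest WT library, with no overlap. The means were 6.92 ± 0.828 FPKM in ΔFOXC2 and 1.83 ± 0.423 FPKM in WT cells (SD, n = 5 each), and the log2 difference was 1.88 (SE 0.145, limma adjusted p = 2.337e-06). This is a fold of 3.69 on the log2(FPKM + 0.1) scale, with a 95% interval of 2.96 to 4.60. It remained called under every alternative setting in which it was tested, with log2 differences of 1.49 to 1.99.

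Ifih1 encodes MDA5, which recognises long double-stranded RNA, and was the lowest of the 9 genes. It had 0.534, 0.929, 0.568, 0.611 and 0.661 FPKM in ΔFOXC2 and 0.521, 0.775, 0.608, 0.588 and 0.525 FPKM in WT libraries. The groups overlapped over most of their range, and replicate 2 was the highest library in each. Its log2 difference was 0.10 (95% interval -0.25 to 0.45, limma adjusted p = 0.642), and at less than 1 FPKM the pseudocount of 0.1 shrinks any change. Dhx58 encodes LGP2, a receptor without signalling domains that modulates the other RNA sensors. It had 1.33, 1.50, 0.801, 0.580 and 1.27 FPKM in ΔFOXC2 and 0.878, 0.714, 0.733, 0.915 and 0.889 FPKM in WT libraries. In ΔFOXC2 cells 3 libraries were above every WT library and replicate 4 was below all of them. Its log2 difference was 0.30 (95% interval -0.18 to 0.79, limma adjusted p = 0.291), an interval that includes a change of more than 1.5-fold. Without ΔFOXC2 replicate 4 it was 0.49, with adjusted p = 0.0434, still under the fold threshold.

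The rise of Ddx58 was larger than the differences of the other RNA sensors. The log2 difference of Ddx58 exceeded that of Ifih1 by 1.78 and that of Dhx58 by 1.58 (exact two-sided permutation test over the 10 libraries, p = 0.00794 for each, the smallest that 252 regroupings allow, and 0.0119 adjusted over 3 pairs). Dhx58 and Ifih1 differed by 0.20 in the same measure (exact p = 0.460, adjusted p = 0.460). These pairs were compared with earlier results of these data known. Summed over the 3 receptor genes, the level was 8.68 ± 1.23 FPKM in ΔFOXC2 and 3.26 ± 0.422 FPKM in WT cells (SD, n = 5 each). Ddx58 made up 76.7% to 85.4% of that sum in ΔFOXC2 and 48.4% to 63.1% in WT libraries. The share ranges of the groups did not overlap, which restates the differences of these genes and is not a separate result.

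**Figure D2:**
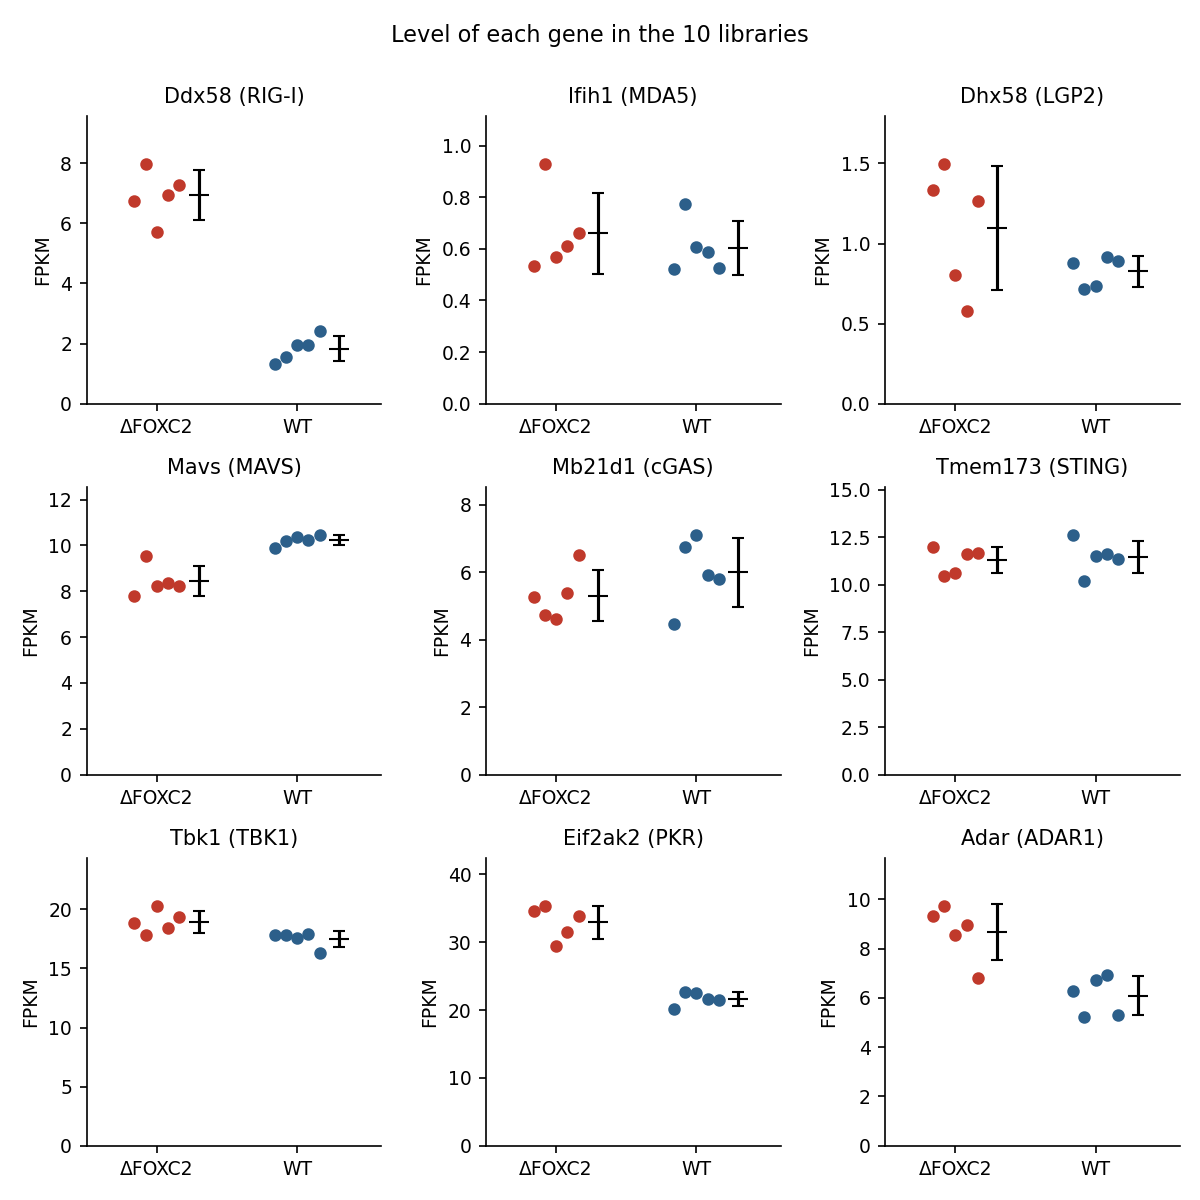
FPKM of each of the 9 genes in the 5 ΔFOXC2 libraries (red) and the 5 WT libraries (blue), each on its own linear axis from 0; points run from replicate 1 to 5, and the black bars are the mean ± SD. Ddx58 and Eif2ak2 do not overlap between the groups and are higher in ΔFOXC2, while Mavs does not overlap and is lower.

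Mavs, the adaptor that RIG-I and MDA5 share, went the other way from Ddx58. It lies on chromosome 2, 131234063 to 131248025. It had 7.80, 9.54, 8.24, 8.34 and 8.25 FPKM in ΔFOXC2 and 9.89, 10.2, 10.4, 10.2 and 10.5 FPKM in WT libraries. All 5 ΔFOXC2 libraries were below the lowest WT library. The log2 difference was -0.28 (95% interval -0.40 to -0.16, limma adjusted p = 0.0018), which is under 1.5-fold. Groups that do not overlap were common in these data: 14.9% of the genes tested were separate with ΔFOXC2 lower, as Mavs was, and 15.1% with ΔFOXC2 higher, as Ddx58 and Eif2ak2 were. Relative to its adaptor, Ddx58 stood at 0.693 to 0.882 of the Mavs level in ΔFOXC2 and at 0.133 to 0.231 of it in WT libraries. This ratio restates the differences of both genes.

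The genes of the DNA route did not pass the test. Mb21d1 encodes cGAS, the sensor of cytosolic DNA, and had 5.27, 4.73, 4.63, 5.39 and 6.52 FPKM in ΔFOXC2 against 4.46, 6.74, 7.11, 5.91 and 5.82 FPKM in WT libraries. The lowest of the 10 values was WT replicate 1 and the groups overlapped. The log2 difference was -0.17 (95% interval -0.45 to 0.11, limma adjusted p = 0.315). Tmem173, which encodes STING, had 12.0, 10.5, 10.6, 11.6 and 11.7 FPKM in ΔFOXC2 and 12.6, 10.2, 11.5, 11.6 and 11.4 FPKM in WT libraries. The ΔFOXC2 range lay inside the WT range. Its log2 difference of -0.02 had a 95% interval of -0.16 to 0.11 (limma adjusted p = 0.804), so a change of 1.5-fold lay outside the interval for both genes. The mRNA of both the sensor and its adaptor was present in every library of either group.

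Tbk1, the kinase on which both routes converge, had 18.9, 17.9, 20.3, 18.4 and 19.3 FPKM in ΔFOXC2 and 17.8, 17.8, 17.5, 17.9 and 16.3 FPKM in WT libraries. In ΔFOXC2 cells 4 libraries were above the highest WT library, by small margins. The log2 difference was 0.12 (95% interval 0.02 to 0.21, limma adjusted p = 0.0578, and 0.0376 without ΔFOXC2 replicate 2), and the genes within 5 Mb of it on chromosome 10 had a median of 0.14 over 33 genes tested. Mavs lay among 71 tested genes with a median of -0.05, and Ddx58 among 59 with a median of 0.02. Whether position has a part in any of these differences was not tested.

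Eif2ak2 encodes PKR, which phosphorylates the translation factor eIF2 alpha, and was the most abundant of the 9 in both groups. It lies on chromosome 17, 78852564 to 78882573. The ΔFOXC2 libraries had 34.7, 35.3, 29.4, 31.5 and 33.8 FPKM and the WT libraries 20.1, 22.7, 22.5, 21.6 and 21.4 FPKM, with no overlap. The means were 32.9 ± 2.45 FPKM in ΔFOXC2 and 21.7 ± 1.02 FPKM in WT cells (SD, n = 5 each), a log2 difference of 0.60 (SE 0.0557, limma adjusted p = 8.444e-06). The 95% interval of the fold, 1.39 to 1.65, spans the threshold of 1.5. The fold fell under it without ΔFOXC2 replicate 1 (log2 0.58) or 2 (0.57), without WT replicate 1 (0.57) and with a pseudocount of 1 (0.58), while the adjusted p-value stayed at or below 0.000325 under all alternatives.

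Adar encodes the main adenosine deaminase of double-stranded RNA. It had 9.32, 9.73, 8.56, 8.95 and 6.79 FPKM in ΔFOXC2 and 6.30, 5.22, 6.71, 6.92 and 5.30 FPKM in WT libraries. In ΔFOXC2 cells 4 libraries were above all WT libraries, and replicate 5 lay inside the WT range. The log2 difference was 0.50 (95% interval 0.26 to 0.74, limma adjusted p = 0.0036), under 1.5-fold, and it passed the fold threshold without ΔFOXC2 replicate 5 (log2 0.59, adjusted p = 0.000787). The value is a sum over 9 annotated transcripts from several start sites, so the interferon-inducible and the constitutive forms of the enzyme cannot be told apart. Adar also overlaps Chrnb2, Eif2ak2 the non-coding gene Gm26637, Dhx58 the antisense gene Dhx58os and Mb21d1 the pseudogene Gm8093, each on the opposite strand. The libraries were strand-specific, and whether the counting used the strand is not given in the sources used here.

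**Figure D3:**
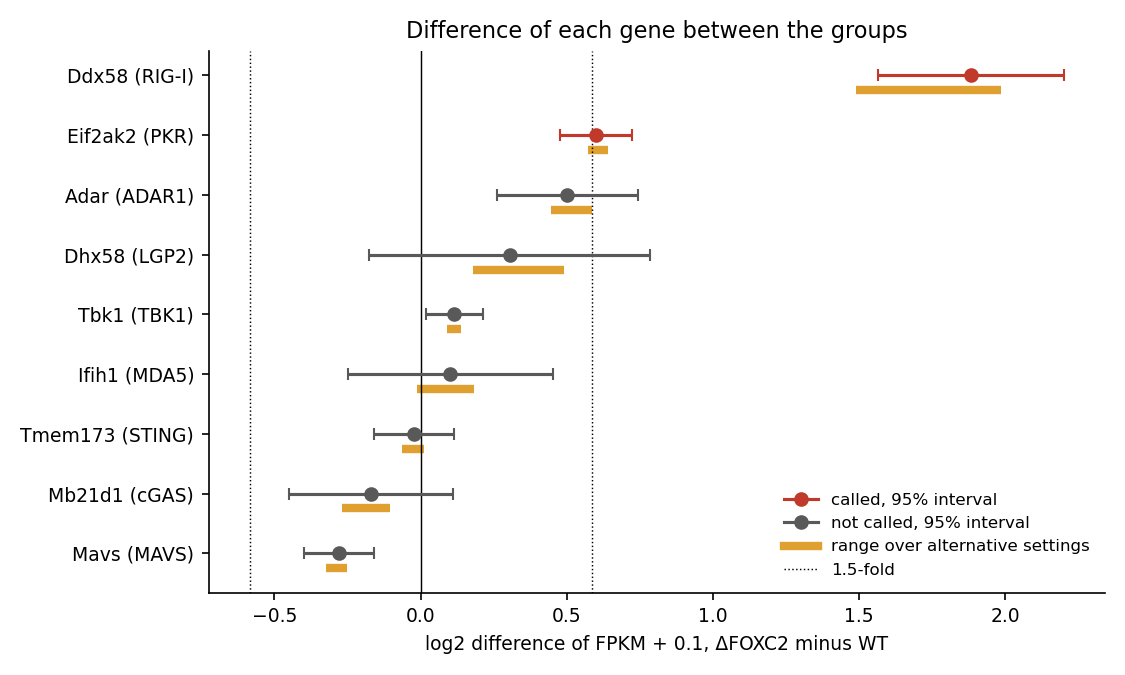
Log2 difference of each gene, ΔFOXC2 minus WT, with its 95% interval from limma (red where called, grey where not) and the range over the alternative settings (orange); dotted lines mark 1.5-fold. Ddx58 at 1.88 stands far beyond the threshold, Eif2ak2 at 0.60 just beyond it, and Mavs at -0.28 below 0.

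At any fold, 3 of the 9 genes were higher and 1 lower at the adjusted p threshold, Ddx58, Eif2ak2 and Adar against Mavs, beside 20.7% and 20.8% of all genes tested. At 2-fold, Ddx58 alone of the 9 was higher and 0 were lower, beside 1.81% and 1.4% of all genes. The order of levels, which FPKM allows between genes because it is scaled by length, put Ddx58 above Mb21d1 in ΔFOXC2 cells and below it in WT cells, and Adar above Mavs in ΔFOXC2 cells and below it in WT cells. In ΔFOXC2 cells it ran Eif2ak2, Tbk1, Tmem173 at 11.3 ± 0.682 FPKM, Adar, Mavs, Ddx58, Mb21d1, Dhx58 and Ifih1. In WT cells it ran Eif2ak2, Tbk1, Tmem173, Mavs, Adar, Mb21d1 at 6.01 ± 1.02 FPKM, Ddx58, Dhx58 and Ifih1. In ΔFOXC2 cells the ranges of Adar and Mavs, of Mavs and Ddx58, of Ddx58 and Mb21d1, and of Dhx58 and Ifih1 overlapped, so their order is within the spread of the libraries. In WT cells those of Tmem173 and Mavs, of Adar and Mb21d1, and of Dhx58 and Ifih1 overlapped, while Ddx58 overlapped neither neighbour and Mavs and Adar did not overlap.

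**Figure D4:**
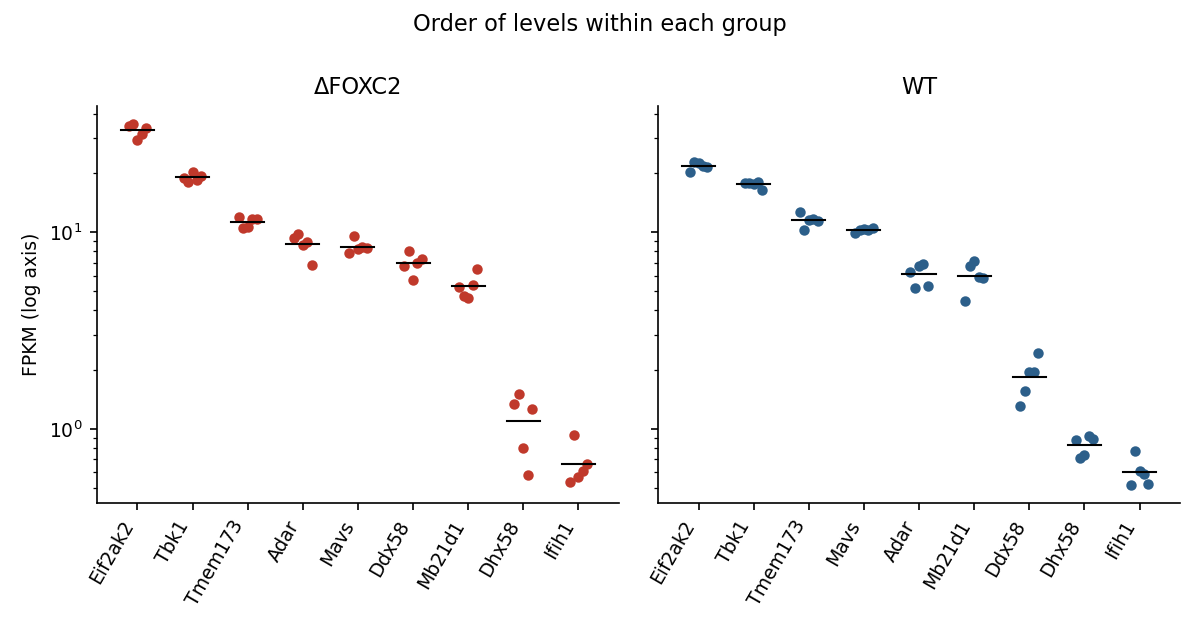
FPKM on a log axis of the 9 genes in order of their mean, for the ΔFOXC2 libraries (left, red) and the WT libraries (right, blue), with a black line at each mean. Ddx58 stands beside Mb21d1 and Mavs in ΔFOXC2 and below Mb21d1, between 1.31 and 2.42 FPKM, in WT.

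Another 7 lists of genes around these sensors held 190 genes, of which 157 were tested, and 20 rose and 2 fell in ΔFOXC2 cells. These calls are 12.7% and 1.27% of the list genes tested, beside 4.97% and 3.65% of all genes tested by the same rule. The counts by the unadjusted p at any fold that follow stand beside 24.2% of all genes tested higher and 25.2% lower by that rule. Of those that rose, 18 were in the list of the interferon receptor chain and its targets, and 2 were among the 129 tested genes of the other lists. The 28 tested genes of the interferon list had a median log2 difference of 0.96, with 18 called higher and 0 lower by limma, and 20 and 2 by the unadjusted p at any fold. Oas1a, which makes the second messenger of RNase L on binding double-stranded RNA, averaged 11.8 ± 1.14 FPKM in ΔFOXC2 and 1.00 ± 0.280 FPKM in WT cells (log2 3.47). As 1 of a cluster of similar genes, its level is uncertain. Xaf1, a pro-apoptotic factor, rose (log2 2.65), and so did the ubiquitin-like modifier Isg15, with 11.8 ± 2.05 FPKM in ΔFOXC2 and 2.03 ± 0.415 FPKM in WT cells (log2 2.49). The transcription factors Irf9 (log2 1.41) and Stat2 (log2 0.69), which act downstream of the interferon receptor and were named after their values were seen, also rose. The receptor genes Ifnar1 (log2 0.01) and Ifnar2 (log2 -0.05) were not called. That this list is higher was known from earlier results of these data and is not independent evidence.

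Among 22 tested regulators of RIG-I-like receptors and MAVS, 0 rose and 1 fell, with a median of -0.05, and 5 were higher and 10 lower by limma's unadjusted p at any fold. The gene that fell was Trim25, a ubiquitin ligase known for activating RIG-I. It had 0.289, 0.171, 0.221, 0.180 and 0.128 FPKM in ΔFOXC2 and 2.61, 3.43, 3.40, 3.73 and 3.37 FPKM in WT libraries. Every ΔFOXC2 library was below every WT library, and the log2 difference was -3.53 (SE 0.153, limma adjusted p = 2.807e-08). With a pseudocount of 1 it was -1.84 and with 0.01 it was -4.04, so its size depends on that setting. Trim25 was thus lower in ΔFOXC2 cells, and Ddx58 higher.

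Among 29 tested genes of cGAS, STING and cytosolic DNA handling, 1 rose and 1 fell, with a median of -0.01. By limma's unadjusted p at any fold, 8 were higher and 5 lower. Trim21, a cytosolic antibody receptor and ubiquitin ligase, had 3.39 ± 0.473 FPKM in ΔFOXC2 and 1.90 ± 0.0904 FPKM in WT cells (log2 0.79). Rnaseh2a, the catalytic subunit of the enzyme that removes RNA from DNA, had 3.41 ± 0.288 FPKM in ΔFOXC2 and 5.41 ± 0.277 FPKM in WT cells (log2 -0.65, and -0.54 with a pseudocount of 1, which is under the fold threshold). It lies on chromosome 8, where the 578 genes tested had a median of -0.36. Among 22 tested partners of TBK1 and transcription factors, 1 rose and 0 fell by limma, with a median of -0.01, and 4 were higher and 8 lower by the unadjusted p at any fold. The gene that rose was Optn, an autophagy receptor that TBK1 phosphorylates, with 38.8 ± 1.47 FPKM in ΔFOXC2 and 21.9 ± 1.94 FPKM in WT cells (log2 0.83). Irf3, the factor that TBK1 activates, had a log2 difference of -0.04 (limma adjusted p = 0.719) and was named after its value was seen.

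None of the 19 tested genes of the PKR arm was called by limma, with a median of -0.10, while 3 were higher and 5 lower at any fold with an unadjusted p up to 0.05. Atf4, the transcription factor translated when eIF2 alpha is phosphorylated, had 109.9, 179, 229, 156 and 121 FPKM in ΔFOXC2 and 202, 217, 237, 212 and 287 FPKM in WT libraries. The groups overlapped, and the log2 difference was -0.58 (limma adjusted p = 0.0226), just under 1.5-fold. It passed the threshold without any 1 of 6 libraries, ΔFOXC2 replicate 2, 3 or 4 or WT replicate 1, 2 or 4, at log2 -0.73 to -0.59. Without ΔFOXC2 replicate 5 (log2 -0.49, limma adjusted p = 0.0556) or WT replicate 5 (log2 -0.50, limma adjusted p = 0.0538) it no longer passed the p threshold. Eif2s2, a subunit of eIF2, had a log2 difference of -0.16. Of 24 tested proteins of double-stranded RNA binding and editing, 0 were called by limma, with 6 higher and 8 lower by the unadjusted p. The helicases Ddx3x (log2 -0.08) and Ddx1 (log2 -0.13) were the most abundant. Of 13 tested genes of endosomal sensing 0 were called by limma, with 4 higher and 0 lower by the unadjusted p. The most abundant were the chaperone Hsp90b1 (log2 0.11) and the ribonuclease Rnaset2a (log2 0.04).

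**Figure D5:**
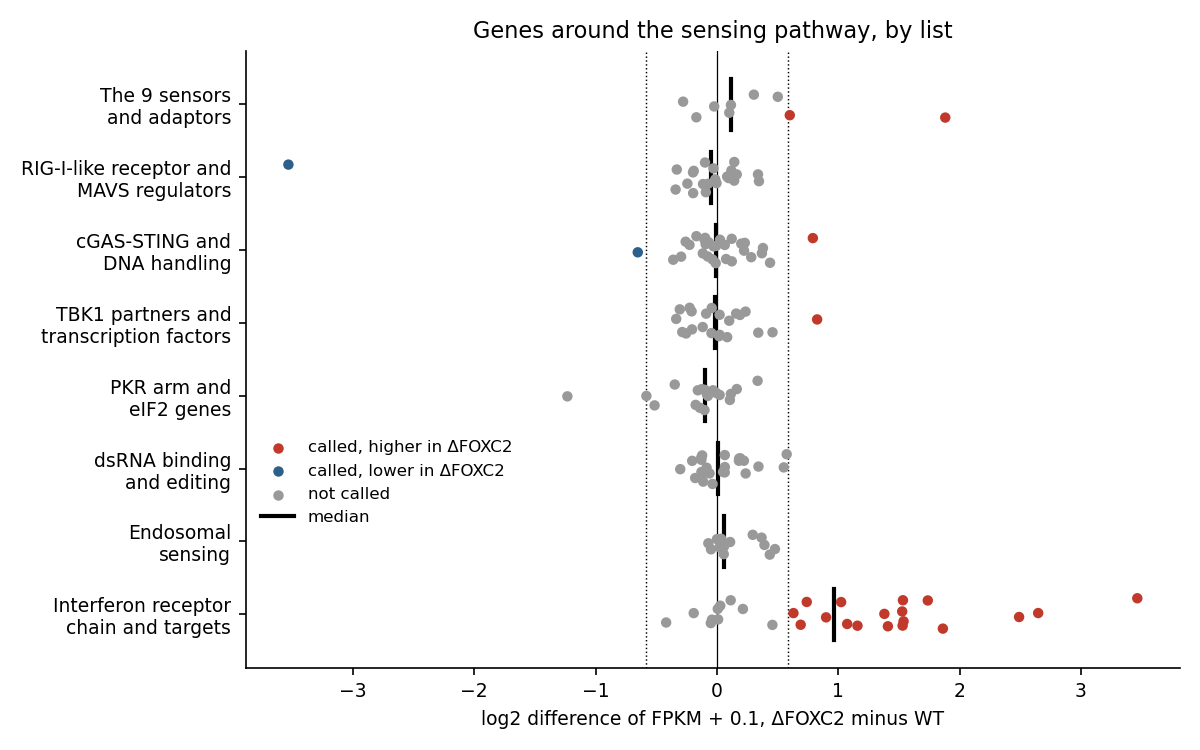
Log2 difference, ΔFOXC2 minus WT, of the 9 genes and of the tested genes of 7 pathway lists, 1 point per gene, with the median as a black bar and 1.5-fold as dotted lines. Called genes (red, higher in ΔFOXC2) gather in the interferon list, whose median is 0.96, and Trim25 at -3.53 is the lowest point (blue, lower in ΔFOXC2).

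Melanocyte markers, and the 2 of 13 macrophage and leukocyte markers that were tested, were higher in ΔFOXC2 cells, as Ddx58 and Eif2ak2 were. All 9 melanocyte markers were tested and were higher in ΔFOXC2 cells by the adjusted p at any fold, as were 20.7% of all genes tested. Their median log2 difference was 0.28, and they summed to 3973 to 4395 FPKM in ΔFOXC2 and 3290 to 3787 FPKM in WT libraries. The 2 that were called were Oca2, with 6.87 to 11.1 FPKM in ΔFOXC2 and 1.40 to 2.26 FPKM in WT libraries (log2 2.28), and Tyr (log2 0.71). Of 13 macrophage and leukocyte markers 2 were tested, Lyz2 and Cd68, and both rose (log2 2.36 and 0.94). They summed to 2.53 to 4.59 FPKM in ΔFOXC2 and 0.757 to 1.40 FPKM in WT libraries, and neither was listed at 0 in any library. The other 11 had no entry under the listed symbols. Every gene with an entry averaged at least 0.50 FPKM in 1 of the groups or in both. The part of either list in the differences of the sensors was not tested. In RNA from whole cultures, a change in the share of cells that express a gene and a change in RNA per cell cannot be told apart. Of 8 fibroblast markers 2 had an entry, and 1 was tested and not called. The 7 endothelial markers had no entry. The libraries summed to 240441 to 251273 FPKM, and the number of reads behind a value is unknown.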

How the data were processed

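Per the file header, the deposited values are FPKM (fragments mapped to a gene, scaled by transcript length and library total), computed by the authors. Per the submitters' processing notes, FastQC, cutadapt, HISAT2 and StringTie were used with build GRCm38, and versions are not given in the sources used here. Per the labels' protocols, poly(A) RNA was sequenced from strand-specific libraries. Read counts were not used here, so depth is unknown and no counting interval is given. FPKM divides by all mapped fragments, so large changes in abundant genes shift the others.

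Groups came from the sample titles. Differences (ΔFOXC2 minus WT) were fitted with limma 3.58.1 in R 4.3.3 (trended eBayes, two-sided) on log2(FPKM + 0.1), over 10570 genes averaging 0.5 FPKM or more, without covariates. The fit was checked on simulated data. Calls needed an adjusted p of at most 0.05 and 1.5-fold. The members and lists were chosen with earlier results of these data known. Besides the 9 genes, the naming rule took, from each list, up to 3 called genes in each direction, and the 2 most abundant where none was called. Promoter windows are RefSeq's, in GRCm38.p6.

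The alternatives were other pseudocounts, filters, scaling and variance models, other call thresholds, the replicate number as a block, and each library left out. Alternatives for the receptor pairs were chosen after seeing the data.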

Additional observations from a re-analysis of the deposited data

Results flagged for a closer look

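The level of Tbk1 in WT replicate 5, 16.3 FPKM, stood apart from the other 4 WT libraries, which lay between 17.5 and 17.9 FPKM. Its gap to the nearest of them was 0.761 of the whole range of the group. It was the 1 value that stood apart in this way among 18 sets of 5 libraries, and chance gives about 1 in 20. Without it the log2 difference of Tbk1, ΔFOXC2 minus WT, was 0.09 (limma adjusted p = 0.124), against 0.12 with all libraries.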

How the results depend on the processing

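The log2 differences of the 9 genes and 13 named pathway genes were recomputed 389 times: 374 kept their direction and their call, 5 lost the call, 7 gained it and 3 changed sign. Of the 374, 5 passed the adjusted p threshold with 1 library left out and not with all, still under 1.5-fold (Dhx58 without ΔFOXC2 replicate 4, Tbk1 and Hsp90b1 without ΔFOXC2 replicate 2, Eif2s2 without ΔFOXC2 replicate 3, Ddx3x without WT replicate 1), and 2 no longer passed it (Atf4 without ΔFOXC2 or WT replicate 5). The sign changes were Ifih1 without ΔFOXC2 replicate 2 (log2 -0.012) and Tmem173 without ΔFOXC2 replicate 2 (0.0042) or WT replicate 1 (0.013), all close to 0. With 1 library left out, Ifih1 ranged from -0.012 to 0.184 and Tmem173 from -0.063 to 0.013. Of the 9 genes, 2 were called higher in ΔFOXC2 cells, 1 with a pseudocount of 1, 1 with a filter at 5 FPKM, where Ddx58, Ifih1 and Dhx58 were not tested, and 1 at 2-fold. With 1 library left out it was 1 to 3. The count lower in ΔFOXC2 cells was 0, and 1 at any fold. Of the pathway genes, 20 rose and 2 fell. With a filter at 5 FPKM, which tests fewer genes, these counts were 6 and 0, at any fold 44 and 31, and those that fell numbered 1 with a pseudocount of 1 and 1 at 2-fold. With 1 library left out 19 to 22 rose and 2 to 5 fell, with 5 without WT replicate 1 and 4 without ΔFOXC2 replicate 3; the cause was not tested. The log2 differences of the 3 receptor pairs kept their direction and their side of the threshold under the other pseudocounts and with any library left out.

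Libraries share only a replicate number. With the group mean of each gene subtracted, the deviations of same-numbered libraries correlated at -0.121 to 0.137 across genes. In this measure 3 of 5 ΔFOXC2 libraries correlated best with the WT library of their own number. Without the subtraction, ΔFOXC2 and WT libraries correlated with each other at 0.954 to 0.965, and libraries of the same group at 0.982 to 0.986. With the replicate number as a block, 2 of the 9 genes were higher and 0 lower, and 20 pathway genes were higher and 3 lower. Depth is unknown, and the lowest genes, Ifih1 and Dhx58, had the widest 95% intervals of the 9 log2 differences.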

Other observations

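All genes in this paragraph were chosen after their values were seen, and none was called except Ifit1 and Ifit3. Of the other eIF2 alpha kinases, Eif2ak1 had 20.4 ± 0.634 FPKM in ΔFOXC2 and 18.2 ± 0.460 FPKM in WT cells (log2 0.16), and Eif2ak3 11.3 ± 0.857 FPKM in ΔFOXC2 and 12.8 ± 0.580 FPKM in WT cells (log2 -0.17). Ikbke, the kinase closest to TBK1, had 2.11 ± 0.181 FPKM in ΔFOXC2 and 1.50 ± 0.0633 FPKM in WT cells (log2 0.46, limma adjusted p = 0.00077). It lies on chromosome 1, where the 573 genes tested had a median log2 difference of 0.26. Samhd1, which degrades deoxynucleotides, had 8.14 ± 0.404 FPKM in ΔFOXC2 and 5.98 ± 0.219 FPKM in WT cells (log2 0.44). The second editing enzyme Adarb1 was low, at 0.728 ± 0.0762 FPKM in ΔFOXC2 and 0.472 ± 0.107 FPKM in WT cells (log2 0.55). Of the endosomal route, Irak4 (log2 0.48), Unc93b1 (0.44), Ticam1 (0.39) and Pld3 (0.37) were higher in ΔFOXC2 by the adjusted p, under 1.5-fold. Ifit2, a target of interferon, had 21.5 ± 1.50 FPKM in ΔFOXC2 and 28.8 ± 1.55 FPKM in WT cells (log2 -0.42), opposite in sign to Ifit1 (log2 1.74) and Ifit3 (log2 1.53), its neighbours on chromosome 19, which rose.

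Among the 9 genes, deviations from the group mean over the 10 libraries are given as a description. The gene of at least 2 FPKM most like Ddx58 in this was Tmem30a (Pearson r = 0.968), followed by Vps41 (0.956). For Eif2ak2 these were Havcr2 (0.964) and Kdelc2 (0.957), and for Tmem173 Polr2g (0.986) and Mtx2 (0.966). With 10 libraries and every tested gene of at least 2 FPKM compared, high values arise without any relation, and nothing is read from them.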
